A study of Mus musculus with 6 samples.

Results

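This account concerns 10 genes through which death receptors signal: the receptors Fas, Tnfrsf10b and Tnfrsf1a, the adaptor Fadd, caspase-8 (Casp8) and its inhibitor-like relative Cflar, the kinases Ripk1 and Ripk3, and the inhibitors of apoptosis Birc2 and Birc3. They were taken by symbol from a table of 20756 mouse genes, and all 10 were in it. Death receptors of the TNF receptor family bind ligands such as TNF, Fas ligand and TRAIL at the cell surface. The death receptors for Fas ligand and TRAIL recruit Fadd, which brings in caspase-8. Active caspase-8 cuts the executioner caspases that dismantle the cell. Cflar, also called c-FLIP, is a catalytically inactive relative that pairs with caspase-8 and limits its activation. When caspase-8 is blocked, Ripk1 and Ripk3 can instead drive necroptosis, a lytic form of death. Birc2 and Birc3 (cIAP1 and cIAP2) are ubiquitin ligases that modify Ripk1 in the TNF receptor complex, and Birc3 and Cflar are textbook target genes of NF-κB. In the gut, loss of epithelial caspase-8 is known to cause death of crypt cells through Ripk3.

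Expression was measured by 3′ tag sequencing (QuantSeq, which reads 1 fragment near the end of each transcript) in mouse tumor organoids (MTOs), cultured intestinal tumor epithelium of the C57BL/6 strain. There were 3 sgPrkci MTO libraries (numbered 10, 11 and 12), in which CRISPR/Cas9 guides target Prkci, the gene for the atypical protein kinase C λ/ι. They were set against 3 sgPrkcz MTO libraries (numbered 13, 14 and 15), with guides against Prkcz, the gene for the other atypical isoform, PKCζ. Both groups received no treatment and grew in the same EGF-supplemented medium. MTOs without a targeted gene were not analysed here, so no difference can be assigned to one of the guides. Whether the 3 libraries of a group came from separate clones or cultures is not stated beyond the words biological replicates, so the p-values measure only the spread between these libraries. In bulk RNA, fewer cells expressing a gene and less RNA per cell cannot be told apart.

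The labels of the libraries could not be checked against the targeted genes. Prkci had 53.9, 56.5 and 46.9 CPM (reads of the gene scaled to a common library total) in sgPrkci MTOs, against 72.3, 34.5 and 59.7 CPM in sgPrkcz MTOs. Prkcz had 2.26, 3.27 and 4.62 CPM in sgPrkci MTOs, against 2.97, 5.02 and 2.93 CPM in sgPrkcz MTOs. The groups overlapped for both genes, and a 3′ tag need not cover the site that a guide cuts, so neither value tests the labels. In one place, a sheet of source data, the study's own material names the 2 sets of libraries the other way round. The groups below follow the sample labels, and under the other naming every direction would be reversed. Library depth was 2141125 to 2815760 reads in sgPrkci MTOs and 1593480 to 2696430 reads in sgPrkcz MTOs. The epithelial markers Epcam, Cdh1, Krt8, Krt18 and Krt19 were all well measured. Their summed level was 3481 to 3891 CPM in sgPrkci MTOs and 4271 to 4529 CPM in sgPrkcz MTOs, but they did not all move the same way. Epcam was higher in sgPrkci MTOs, with 700 to 823 CPM against 520 to 586 CPM in sgPrkcz MTOs. Cdh1, Krt18 and Krt19 were lower in every sgPrkci library than in every sgPrkcz library, and Krt8 overlapped. Such a separation, in either direction, held for 50.0% of all genes fitted below. The fibroblast markers summed to at most 2.34 CPM and the endothelial markers to at most 0.742 CPM in any library, with Col1a2, Col3a1 and Kdr at 0 in all of them. Of 8 leukocyte markers, 3 were in the table, and their sum was 7.94 to 12.4 CPM in sgPrkci MTOs and 4.10 to 7.42 CPM in sgPrkcz MTOs, most of it from Cd68.

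Birc3 and Birc2 are near neighbours on mouse chromosome 9 (GRCm38), both on the minus strand, with 11634 bases and 0 protein-coding genes between them. Their upstream sequences are shown because Birc3 had the largest difference of the 10 genes and Birc2, its closest relative among them, did not pass the threshold. Each stretch is 200 bases long and runs 5′ to 3′ on the gene's own strand, from 220 to 21 bases before the RefSeq start (build GRCm38.p6), with CpG dinucleotides in capitals.
Birc3, chr9:7873191-7873390, minus strand: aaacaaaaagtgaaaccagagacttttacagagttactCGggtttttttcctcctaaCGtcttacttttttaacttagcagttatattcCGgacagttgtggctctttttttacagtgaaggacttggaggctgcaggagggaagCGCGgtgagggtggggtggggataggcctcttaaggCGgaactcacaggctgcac
Birc2, chr9:7837078-7837277, minus strand: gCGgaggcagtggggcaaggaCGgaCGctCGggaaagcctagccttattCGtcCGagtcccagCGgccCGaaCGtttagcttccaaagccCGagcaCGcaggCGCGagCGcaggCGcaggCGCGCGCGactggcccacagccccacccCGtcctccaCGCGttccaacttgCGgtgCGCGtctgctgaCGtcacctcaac
The Birc3 stretch held 6 CpG dinucleotides and was 47% G and C, while the Birc2 stretch held 26 and was 68.5% G and C. A promoter window of 300 bases (250 before to 50 after the start) was at hand for 9 of the 10 genes, all but Tnfrsf10b, in 11 windows. Birc2 had another RefSeq start downstream of the one used for its stretch. Its window at the start used held 34 CpG dinucleotides and that at the other start held 21, beside 7 in the window of Birc3. The NF-κB consensus, searched on both strands, matched 0 of these genes' windows and 4.51% of the 32851 windows of all genes. The absence of these letters from so short a window says nothing about the factor.

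Of the 10 genes, 9 reached at least 5 CPM in at least 3 libraries and entered a fit over 9558 genes (limma on log2(CPM + 1), Benjamini-Hochberg adjusted p, threshold 0.05). In that fit 4 were higher in sgPrkci MTOs (Birc3, Cflar, Tnfrsf10b and Tnfrsf1a), 0 were lower and 5 did not pass (Fadd, Casp8, Ripk1, Ripk3 and Birc2). Over all fitted genes, 14.4% were higher and 26.5% were lower in sgPrkci MTOs. The median log2 fold change of the 9 genes was 0.25, beside -0.11 over all fitted genes. In 5 of the 9 genes (the 4 that were higher and Birc2) every sgPrkci library lay above every sgPrkcz library, which held for 18.2% of all fitted genes. The log2 fold changes are on the log2(CPM + 1) scale, which understates the change of low genes.

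**Figure D1:**
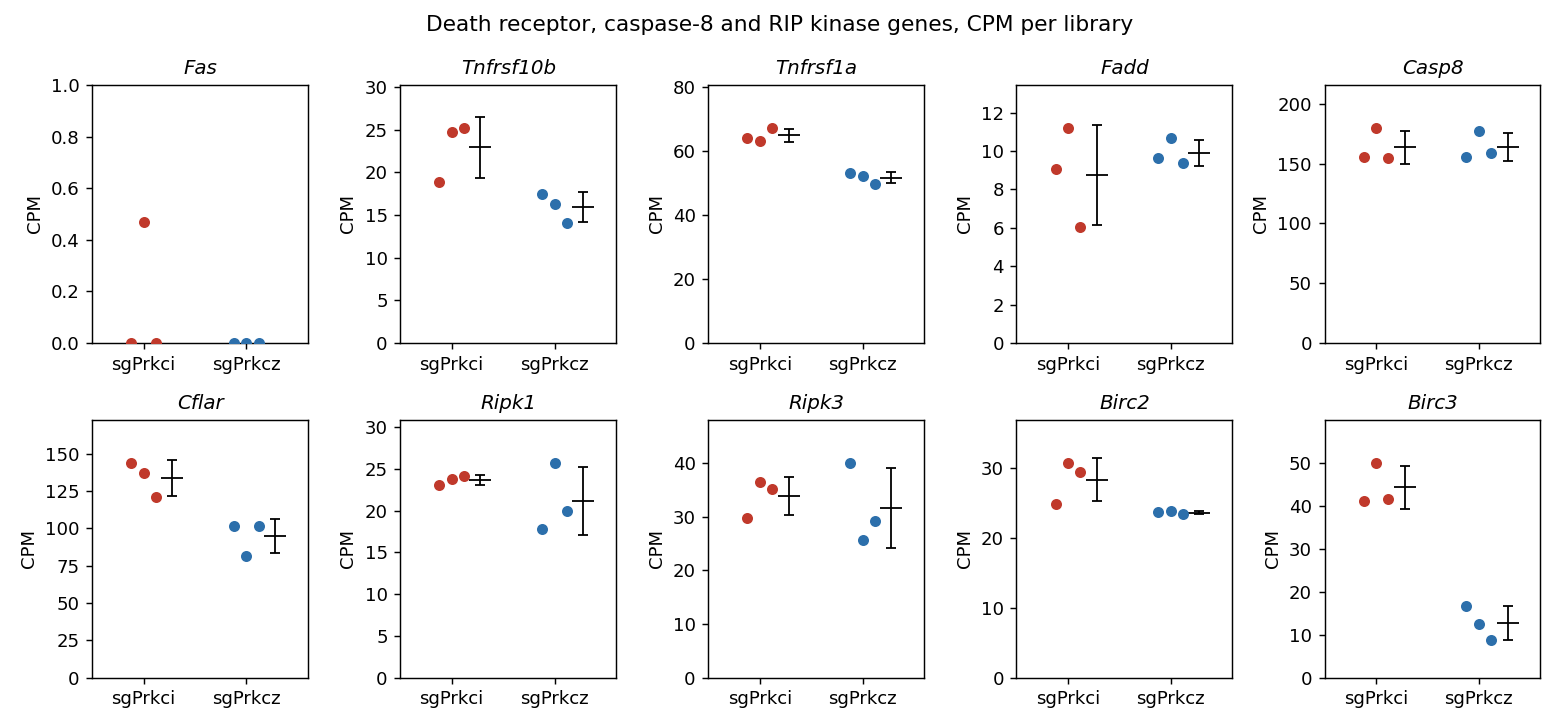
CPM of the 10 genes in each library, with sgPrkci MTOs (red) left of sgPrkcz MTOs (blue); points are libraries, the bar and whiskers beside them are the mean ± SD (n = 3), and each panel has its own axis from 0. Fas, drawn without a mean, had 1 read in 1 of the 6 libraries. The 2 groups separate in the panels for Birc3, Cflar, Tnfrsf1a, Tnfrsf10b and Birc2.

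Of the death receptors, the TNF receptor and the TRAIL receptor were both modestly higher in sgPrkci MTOs, and Fas was practically unread. Tnfrsf1a, the broadly expressed TNF receptor that carries a death domain (chromosome 6, 125349362 to 125362484, plus strand), had 64.1, 63.1 and 67.1 CPM in sgPrkci MTOs, against 53.0, 52.1 and 49.7 CPM in sgPrkcz MTOs. All sgPrkci libraries were above all sgPrkcz libraries, with a gap wider than the spread within either group. The mean was 64.8 ± 2.11 CPM in sgPrkci MTOs and 51.6 ± 1.70 CPM in sgPrkcz MTOs (SD, n = 3 each), a log2 fold change of 0.32 ± 0.11 (SE, limma adjusted p = 0.0285). That call was lost without sgPrkci library 10 (limma adjusted p = 0.0677), without sgPrkci library 12 (0.0926) and without sgPrkcz library 15 (0.0725).

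Tnfrsf10b, the mouse death receptor for TRAIL (chromosome 14, 69767472 to 69784411, plus strand), had 18.9, 24.8 and 25.2 CPM in sgPrkci MTOs, against 17.4, 16.3 and 14.04 CPM in sgPrkcz MTOs. The lowest sgPrkci library was close to the highest sgPrkcz library, and the groups did not overlap. Its mean was 22.9 ± 3.54 CPM in sgPrkci MTOs and 15.9 ± 1.73 CPM in sgPrkcz MTOs (SD, n = 3 each), and the log2 fold change was 0.49 ± 0.19 (SE, limma adjusted p = 0.0403). These values rested on 50, 53 and 71 reads in sgPrkci MTOs and on 47, 26 and 24 reads in sgPrkcz MTOs. The call was lost with DESeq2 on the reads (adjusted p = 0.0653) and when any one of sgPrkci libraries 11 and 12 or sgPrkcz libraries 14 and 15 was left out (limma adjusted p = 0.0559 to 0.149).

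Fas, the receptor for Fas ligand (chromosome 19, 34290666 to 34327772, plus strand), had 1 read, in sgPrkci library 11, and was at 0 in the remaining libraries of both groups. A count of 0 allows up to 3 reads, which is 1.07 to 1.88 CPM depending on the library (counting error only). At this depth no difference in Fas could be detected (two-sided exact permutation test, p = 1, smallest possible p 0.1).

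Fadd and the RIP kinases overlapped between the groups. Fadd, the adaptor with a death domain and a death effector domain (chromosome 7, 144577318 to 144582463, minus strand), had 9.05, 11.2 and 6.04 CPM in sgPrkci MTOs, against 9.64, 10.7 and 9.36 CPM in sgPrkcz MTOs. The log2 fold change of -0.19 ± 0.25 (SE, limma adjusted p = 0.571) rested on 16 to 26 reads a library, with a 95% interval from -0.71 to 0.33. A noncoding gene, Faddos, is annotated on the opposite strand there and was not in the table.

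Ripk1, the kinase that the TNF receptor complex recruits and that serves both survival and death signaling (chromosome 13, 34002363 to 34037147, plus strand), had 23.0, 23.8 and 24.1 CPM in sgPrkci MTOs, against 17.8, 25.7 and 19.9 CPM in sgPrkcz MTOs. The sgPrkci values lay within the range of the sgPrkcz values. For Ripk1 the log2 fold change was 0.17 ± 0.18 (SE, limma adjusted p = 0.472), with a 95% interval from -0.20 to 0.54. Ripk1 overlaps Serpinb6a on the opposite strand, and whether the counting used strand was not given in the sources used here, so its value is uncertain to that extent. Serpinb6a had 219.0 to 291.9 CPM in sgPrkci MTOs and 179.6 to 222.2 CPM in sgPrkcz MTOs.

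Ripk3, the kinase that activates the pore-forming necroptosis effector Mlkl (chromosome 14, 55784995 to 55788865, minus strand), had 29.8, 36.4 and 35.2 CPM in sgPrkci MTOs, against 40.1, 25.7 and 29.3 CPM in sgPrkcz MTOs. The highest and the lowest library were both sgPrkcz ones. It differed by a log2 fold change of 0.11 ± 0.17 (SE, limma adjusted p = 0.630), with a 95% interval from -0.24 to 0.45.

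Casp8 and Cflar sit side by side on chromosome 1 and on the same strand, 36489 bases apart with 0 protein-coding genes between them, and Cflar was higher in sgPrkci MTOs while Casp8 did not pass. Casp8, the initiator caspase (58795374 to 58847503, plus strand), had 155.8, 179.8 and 154.8 CPM in sgPrkci MTOs, against 155.4, 177.6 and 159.2 CPM in sgPrkcz MTOs. The 2 groups covered almost the same range, and the means were 163.5 ± 14.2 CPM in sgPrkci MTOs and 164.0 ± 11.9 CPM in sgPrkcz MTOs (SD, n = 3 each). With 272 to 436 reads a library, Casp8 was among the better measured of the 10 genes. Its log2 fold change was -0.01 ± 0.09 (SE, limma adjusted p = 0.967), with a 95% interval from -0.20 to 0.18. A noncoding gene on the same strand, Gm37760, lies within Casp8 and had 20.4 to 25.2 CPM over the 6 libraries.

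Cflar (58711508 to 58758884, plus strand) had 144.1, 137.3 and 120.7 CPM in sgPrkci MTOs, against 101.6, 81.6 and 101.8 CPM in sgPrkcz MTOs. Every sgPrkci library was above every sgPrkcz library. The mean was 134.0 ± 12 CPM in sgPrkci MTOs and 95 ± 11.6 CPM in sgPrkcz MTOs (SD, n = 3 each), with a log2 fold change of 0.50 ± 0.11 (SE, limma adjusted p = 7.16e-04). The call held in all 18 alternative analyses, with log2 fold changes from 0.39 to 0.61 and adjusted p from 1.44e-05 to 0.0253.

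Of the 2 inhibitors of apoptosis, Birc3 was higher in sgPrkci MTOs and Birc2 did not pass. Birc3 (chromosome 9, 7848699 to 7873186, minus strand) changed most of the 10 genes, with 41.1, 50.0 and 41.6 CPM in sgPrkci MTOs, against 16.7, 12.6 and 8.78 CPM in sgPrkcz MTOs. The lowest sgPrkci library was far above the highest sgPrkcz library. The mean was 44.2 ± 4.99 CPM in sgPrkci MTOs and 12.7 ± 3.96 CPM in sgPrkcz MTOs (SD, n = 3 each). The log2 fold change was 1.76 ± 0.20 (SE, limma adjusted p = 2.60e-07), a 3.39-fold difference on that scale with a 95% interval from 1.35 to 2.17 in log2 units. The reads behind it were 109, 107 and 117 in sgPrkci MTOs and 45, 20 and 15 in sgPrkcz MTOs. The call held in all 18 alternatives, with log2 fold changes from 1.27 to 1.97 and adjusted p of at most 0.00133.

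Birc2 (chromosome 9, 7818227 to 7837064, minus strand), the promoter of which is shown above beside that of Birc3, had 24.9, 30.8 and 29.5 CPM in sgPrkci MTOs, against 23.7, 23.8 and 23.4 CPM in sgPrkcz MTOs. The groups did not overlap, but the lowest sgPrkci library was only just above the sgPrkcz libraries. The log2 fold change of 0.25 ± 0.16 (SE) did not pass (limma adjusted p = 0.230), and its 95% interval from -0.09 to 0.58 includes a rise as large as that of Cflar. The last 500 bases of the Birc2 and Birc3 transcripts shared 0 runs of 30 bases.

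**Figure D2:**
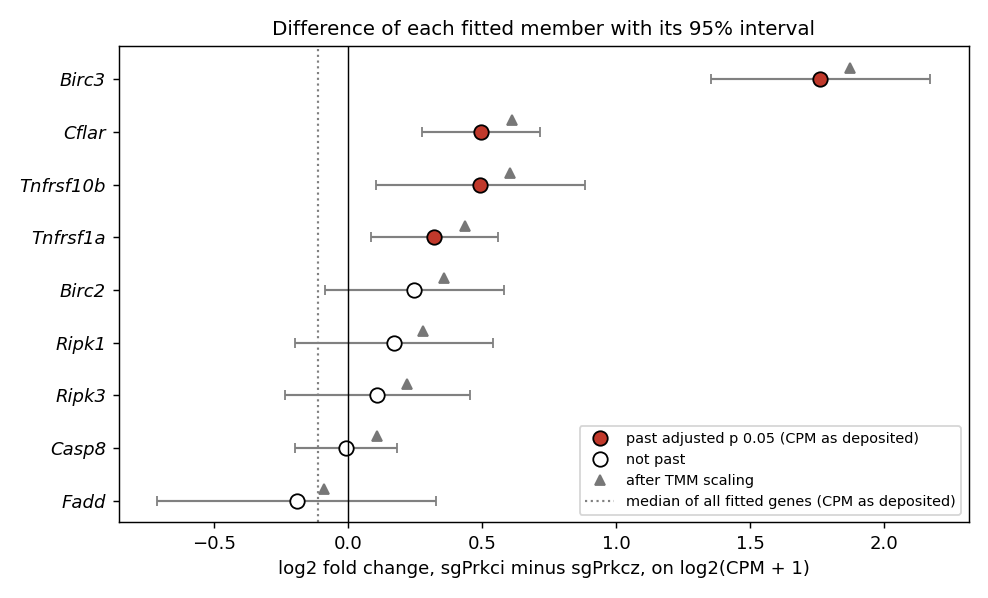
Log2 fold change (sgPrkci minus sgPrkcz, log2(CPM + 1)) of the 9 fitted genes, with 95% intervals as whiskers. Filled points passed the limma threshold, grey triangles are the values after TMM scaling, and the dotted line is the median of all fitted genes (-0.11). Birc3 stands at 1.76, and Casp8 lies at -0.01.

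The median gene lay below 0, and ribosomal RNA-like transcripts took 21.2 to 24.0% of the reads in sgPrkci MTOs and 17.6 to 19.4% in sgPrkcz MTOs. TMM scaling, which sets the bulk of genes level, moved the median to 0.0016. After TMM the same 4 of the 9 genes were higher and 0 were lower, beside 20.7% higher and 19.8% lower over all fitted genes. The log2 fold changes after TMM were 1.87 for Birc3, 0.61 for Cflar, 0.60 for Tnfrsf10b, 0.44 for Tnfrsf1a, 0.36 for Birc2, 0.28 for Ripk1, 0.22 for Ripk3, 0.11 for Casp8 and -0.09 for Fadd (limma with TMM). The sign of Casp8 therefore depends on the scaling, and its value did not pass under either one. With edgeR on the reads 4 of the 9 were higher (21.0% of all fitted genes) and with DESeq2 3 were (15.2% of all fitted genes), the one lost being Tnfrsf10b. These counts of the 9 genes lay above the share over all genes under each of these analyses, and over so few genes they are a description.

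A ratio of 2 genes within a library does not depend on how libraries are scaled to each other. Such ratios compare libraries and not the levels of the 2 genes, since tags of different transcripts are not recovered equally. The ratio of Cflar to Casp8, inhibitor to caspase, was 0.925, 0.764 and 0.780 in sgPrkci MTOs, against 0.654, 0.459 and 0.640 in sgPrkcz MTOs. It was 1.42-fold higher in sgPrkci MTOs with no overlap (two-sided exact permutation test, p = 0.1, adjusted over 3 ratios 0.15). The ratio of Birc3 to Birc2 was 1.65, 1.62 and 1.41 in sgPrkci MTOs, against 0.703, 0.526 and 0.375 in sgPrkcz MTOs. It was 3.01-fold higher in sgPrkci MTOs, also with no overlap (exact permutation p = 0.1, adjusted 0.15). The ratio of Ripk1 to Ripk3 was 0.772, 0.654 and 0.687 in sgPrkci MTOs, against 0.444, 1.00 and 0.68 in sgPrkcz MTOs, with the sgPrkci values inside the sgPrkcz range (exact permutation p = 0.8). With 3 libraries against 3 the smallest possible p is 0.1, so none of the ratios could pass 0.05.

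**Figure D3:**
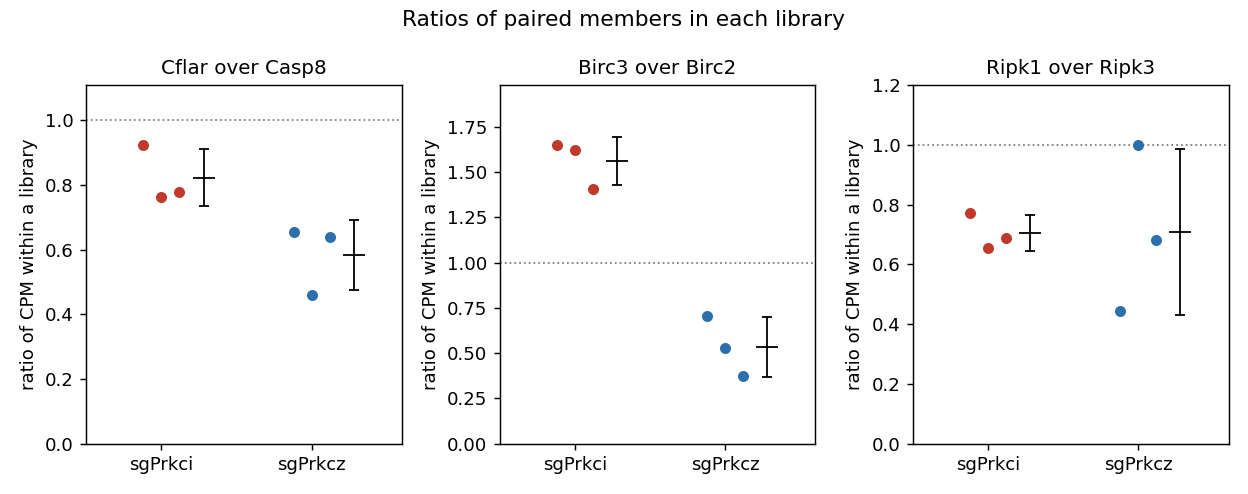
Ratio of the CPM of 2 genes within each library, for Cflar over Casp8, Birc3 over Birc2 and Ripk1 over Ripk3, with sgPrkci MTOs (red) left of sgPrkcz MTOs (blue). Points are libraries, bars and whiskers the mean ± SD (n = 3), and the dotted line marks a ratio of 1. The groups separate in the first 2 panels (lowest sgPrkci ratio 0.764 against highest sgPrkcz ratio 0.654 for Cflar over Casp8) and overlap in the third.

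The genes around these 10 were read from 5 lists with 69 genes, of which 66 were in the table and 51 could be fitted. In all 11 rose in sgPrkci MTOs, 8 fell and 32 missed the threshold, with a median log2 fold change of 0.10 (limma), beside 14.4% higher and 26.5% lower over all fitted genes. After TMM scaling 15 were higher and 2 lower, beside 20.7% and 19.8% of all fitted genes. Tnf and Ngfr are among the higher ones and entered the fit only through the sgPrkci libraries, so the counts describe the lists and support no difference of them from other genes.

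Among the ligands, Tnf itself, the ligand of Tnfrsf1a, was read mainly in sgPrkci MTOs. It had 22.3, 18.2 and 18.1 CPM in sgPrkci MTOs, against 1.48, 0 and 0.585 CPM in sgPrkcz MTOs, which is 149 reads in all against 5. Tnf passed the filter on low values only through the sgPrkci libraries, so its values are given as a description with no test. Leukocytes are a usual source of Tnf. Ptprc, which marks all leukocytes, had 0 to 1.51 CPM in sgPrkci MTOs and 0 to 0.628 CPM in sgPrkcz MTOs, Lyz2 was at 0 in all sgPrkci libraries and at most at 0.371 CPM in sgPrkcz libraries, and Cd68, the one of these markers whose groups did not overlap, had 7.94 to 11.4 CPM in sgPrkci MTOs and 4.10 to 6.68 CPM in sgPrkcz MTOs. Groups separated, in either direction, for 50.0% of all fitted genes. The part of leukocytes in the Tnf level was not tested. The TRAIL gene Tnfsf10 was at 0 in all 6 libraries, Lta, Ltb and Tnfsf12 were at 0 in all sgPrkcz libraries and at most at 1.40 CPM in sgPrkci libraries, and Fasl was not in the table.

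Of the 13 other TNF receptor superfamily genes, 10 were fitted: 5 of them rose in sgPrkci MTOs, 2 fell and 3 missed the threshold. That stands beside 14.4% higher and 26.5% lower over all fitted genes. Their median log2 fold change was 0.37. After TMM scaling 5 were higher and 0 lower, beside 20.7% and 19.8% of all fitted genes. The counts and the median include Ngfr, which entered the fit only through the sgPrkci libraries, so they are a description. Tnfrsf1b, the second TNF receptor, which has no death domain, had 37.3, 54.6 and 38.4 CPM in sgPrkci MTOs, against 23.4, 10.7 and 19.9 CPM in sgPrkcz MTOs (log2 fold change 1.27 ± 0.22, SE, limma adjusted p = 6.58e-05). Tnfrsf23 and Tnfrsf22, mouse decoy receptors for TRAIL, had log2 fold changes of 0.80 and 0.98 (limma adjusted p = 7.62e-05 and 8.97e-04). Their transcript ends share 70 of 1399 runs of 30 bases, so reads could be split between the 2 and each value is uncertain to that extent. Ngfr, the low-affinity neurotrophin receptor, had 9.81, 7.94 and 8.17 CPM in sgPrkci MTOs, against 0.742, 2.51 and 2.34 CPM in sgPrkcz MTOs and passed the filter only through the sgPrkci libraries, so it too is given with no test. The others past the threshold, named after their values were seen, were Tnfrsf11b (0.35), Tnfrsf19 (-0.32) and Ltbr (-0.41), of which the 2 lower ones did not pass after TMM scaling (limma adjusted p = 0.166 for Tnfrsf19 and 0.0997 for Ltbr).

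Of 24 genes of the TNF receptor complex and its ubiquitin regulators, 21 were fitted: 3 of them rose in sgPrkci MTOs, 4 fell and 14 missed the threshold, with a median log2 fold change of 0.08. After TMM scaling 5 were higher and 2 lower, beside 20.7% and 19.8% of all fitted genes. The balance of the 2 directions depends on the scaling, in this list and over all fitted genes. The share that rose before TMM scaling, 3 of 21, was close to the 14.4% of all fitted genes, and 26.5% of all fitted genes were lower. Tnfaip3, which encodes the ubiquitin-editing NF-κB inhibitor A20, had 21.5, 19.6 and 14.9 CPM in sgPrkci MTOs, against 2.97, 5.02 and 5.85 CPM in sgPrkcz MTOs. The log2 fold change of Tnfaip3 was 1.83 ± 0.26 (SE, limma adjusted p = 6.03e-06), close in size to that of Birc3 on the log2(CPM + 1) scale. With edgeR on the reads the log2 fold change was 2.20 for Tnfaip3 and 1.85 for Birc3. Tnfaip3 rested on 57, 42 and 42 reads in sgPrkci MTOs and on only 8, 8 and 10 reads in sgPrkcz MTOs. Xiap, an inhibitor of caspases, had a log2 fold change of 0.40, and Map3k7, the kinase TAK1, also of 0.40 (limma adjusted p = 0.00229 and 0.00630). Ikbkb, the kinase that marks IκB for degradation, was lower, with 45.6, 46.2 and 55.8 CPM in sgPrkci MTOs, against 73.4, 77.8 and 76.7 CPM in sgPrkcz MTOs (log2 fold change -0.62 ± 0.12, SE, limma adjusted p = 2.15e-04). The other lower genes, named after their values were seen, were Rnf31 (-0.99), the catalytic subunit of the linear ubiquitin ligase, and the deubiquitinases Otulin (-0.62) and Cyld (-0.31). The 2 partners of Rnf31 in that ligase, Sharpin (-0.17, limma adjusted p = 0.502) and Rbck1 (-0.10, limma adjusted p = 0.682), did not pass. Otulin and Cyld did not pass after TMM scaling (limma adjusted p = 0.0510 and 0.127), and Rnf31 did not pass with DESeq2 (adjusted p = 0.0894) or without sgPrkci library 11 (limma adjusted p = 0.0529).

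Of 11 necroptosis and pyroptosis genes only 5 could be fitted, with a median log2 fold change of 0.05, and 4 of the 5 missed the threshold. The 1 that passed was higher, beside 14.4% of all fitted genes. After TMM scaling 2 were higher and 0 lower, beside 20.7% and 19.8% of all fitted genes. Ninj1, which drives membrane rupture in dying cells, was higher, with a log2 fold change of 0.61 ± 0.20 (SE, limma adjusted p = 0.0196), a call lost without sgPrkci library 12 (0.0916) or sgPrkcz library 15 (0.106). Mlkl, named after its values were seen because it acts directly after Ripk3, had 20.7, 19.6 and 19.9 CPM in sgPrkci MTOs, against 21.1, 17.6 and 20.5 CPM in sgPrkcz MTOs. The nucleic acid sensor Zbp1 had 1 read in all, and Gsdme, Nlrp6 and Pycard were at 0 in all 6 libraries.

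Of 15 executioner and apoptosome genes 14 were fitted, with a median log2 fold change of 0.03, and 11 missed the threshold. Of the fitted ones 2 were lower, beside 26.5% of all fitted genes. After TMM scaling 0 of them were lower, beside 19.8% of all fitted genes, so their lower calls depend on the scaling. The mitochondrial proteins Aifm1 (-0.33, limma adjusted p = 0.0133) and Htra2 (-0.58, limma adjusted p = 0.0430) were lower, and neither passed after TMM scaling (limma adjusted p = 0.101 and 0.0997).

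**Figure D4:**
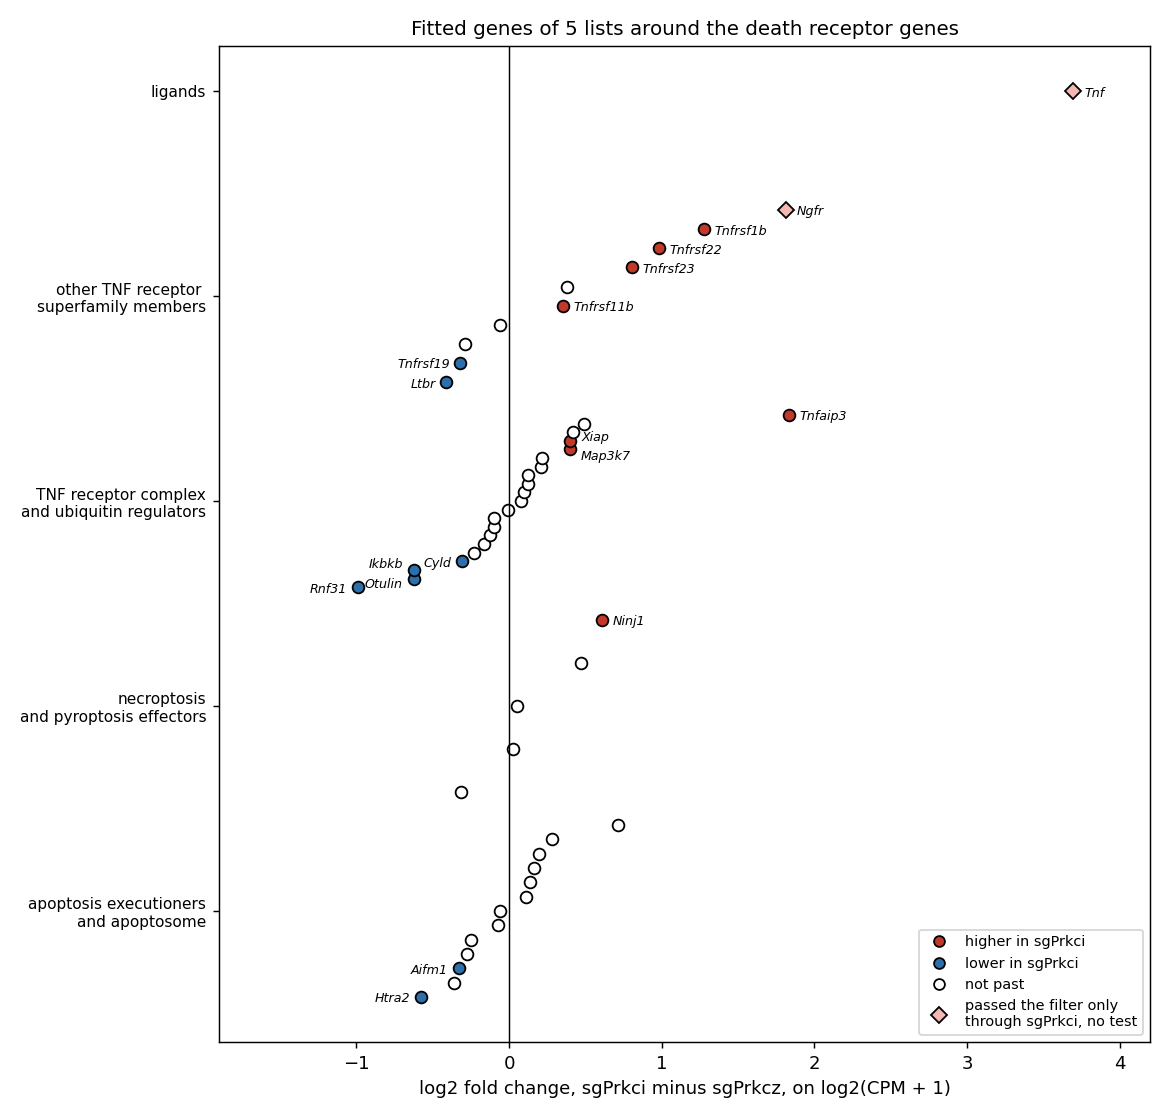
Log2 fold change (sgPrkci minus sgPrkcz, log2(CPM + 1)) of the fitted genes of the 5 lists that are reported here, in rows by list and spread vertically within a row for legibility. Red points were higher and blue points lower in sgPrkci MTOs (limma, 0.05), white points did not pass. Diamonds (Tnf and Ngfr) entered the fit only through the sgPrkci libraries, so their place is a description, and among the circles Tnfaip3 (1.83) and Tnfrsf1b (1.27) lie farthest to the right.

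Among fitted genes with an established symbol, those most like Birc3 over the 6 libraries were Atp2c2 (distance 0.301), Pdxk (0.315) and Foxq1 (0.379). Likeness was the Euclidean distance of centred log2(CPM + 1) values, and genes with provisional names were left out. Atp2c2, a calcium and manganese pump of the secretory pathway, averaged 19.1 ± 2.06 CPM in sgPrkci MTOs and 4.93 ± 1.199 CPM in sgPrkcz MTOs. Pdxk, pyridoxal kinase, averaged 46.7 ± 3.99 CPM in sgPrkci MTOs and 14.7 ± 3.26 CPM in sgPrkcz MTOs. Foxq1, a forkhead transcription factor, averaged 161.8 ± 6.98 CPM in sgPrkci MTOs and 52.5 ± 8.85 CPM in sgPrkcz MTOs (SD, n = 3 each). These genes were picked for their likeness to Birc3, so their difference between the groups is part of the choice and was not tested.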

How the data were processed

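RNA of MTOs was sequenced in 6 libraries by QuantSeq 3′ FWD. The authors deposited 1 table of CPM (reads of a gene scaled to a common library total, GRCm38 per the labels). The aligner, counting program, strand setting and use of molecular identifiers were not given in the sources used here. Of the values above 0, 100% were whole multiples (within 0.01 of a read) of what 1 read was worth in that library, so reads were recovered for count tests. Columns left unused were 0. Gene symbols were matched for 20675 of 20756 Ensembl IDs, and gene positions are from the GENCODE annotation of GRCm38.

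Differences were fitted with limma 3.58.1 (R 4.3.3, intensity trend) on log2(CPM + 1) for genes that reached 5 CPM in 3 or more of 6 libraries, two-sided, with Benjamini-Hochberg adjustment over 9558 genes and a threshold of 0.05. The study's own test was DESeq2. The count tests on recovered reads, edgeR 4.0.16 (3941 genes called) and DESeq2 1.42.0 (2800), were alternatives to limma (3911). Other alternatives changed the scaling (TMM, quantile, without ribosomal RNA-like or without mitochondrial and ribosomal protein genes), filter, pseudocount, intensity trend and threshold, or left out each library. Ratios and Fas were tested by exact permutation. The bound of up to 3 reads for a count of 0 covers counting error only and not the spread between libraries.

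The 10 genes and the 5 lists were chosen with earlier results of these data known, so the lists give no independent support. Named from each list were up to 4 genes with the smallest adjusted p past the threshold, and all ligands. Also named were the 3 fitted genes with an established symbol that were most like the member that changed most. Promoter sequences came from RefSeq (GRCm38.p6), for 9 of 10 genes. A result on 1 gene of the lists is not reported here, though the counts over the lists include that gene.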

Additional observations from a re-analysis of the deposited data

How the results depend on the processing

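The number of the 10 genes that were higher in sgPrkci MTOs was 4 in the main analysis, and 2 to 4 when 1 library was left out. It was 2 at an adjusted p of 0.01 and 0 were lower under every alternative. At 0.01 limma called 978 of the 9558 genes higher in sgPrkci MTOs and 1785 lower. With 1 library left out, limma called between 1059 and 1382 of the 9558 genes higher and between 2110 and 2364 lower. Leaving out sgPrkci library 12 or sgPrkcz library 15 gave 2 of the 10 genes each, Birc3 and Cflar, which passed in all 18 alternatives. Tnfrsf10b was lost in 7 alternatives and Tnfrsf1a in 4, always with the same sign, and leaving out the filter on low values gave Tnfrsf10b an adjusted p of 0.0563 (limma). Values near 0 changed sign: Casp8 was -0.01 in the main analysis and 0.11 with TMM scaling, 0.030 with quantile normalization, 0.066 without ribosomal RNA-like genes, 0.00043 without mitochondrial and ribosomal protein genes, 0.11 with edgeR and 0.11 with DESeq2, and ran from -0.076 to 0.052 when 1 library was left out. Fadd ran from -0.37 to 0.026, Ripk3 from -0.024 to 0.29 and the log2 ratio difference of Ripk1 to Ripk3 from -0.23 to 0.35 when 1 library was left out. That ratio difference was negative without sgPrkci library 10 (-0.0020) and without sgPrkcz library 13 (-0.23). Over all fitted genes, limma called 2534 lower in sgPrkci MTOs on CPM as deposited and 1889 after TMM scaling. The count tests, which also scale libraries to each other, called 1930 lower with edgeR and 1350 with DESeq2. The causes of these changes were not tested. No paired analysis was possible because the 2 groups share no replicate number. Depth limits Fas, with 1 read in all, Fadd, with at most 26 reads a library, and Prkcz.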
